A study of Mus musculus with 2 samples.

Results

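Mouse protein-coding genes are annotated with transcripts that are not thought to yield the full protein. Here 3 such types were described in gastrocnemius, the large calf muscle: nonsense-mediated decay (NMD) transcripts, retained-intron transcripts and non-stop decay transcripts. A transcript was included when the GENCODE M21 annotation gave it 1 of these types in a protein-coding gene and when at least 1 read had been assigned to it as a known, that is annotated, transcript. This held for 1936 transcripts in 1597 genes, of 15988 annotated transcripts of protein-coding genes with a read and of 28631 annotated transcripts of the 3 types. They were 442 NMD, 1492 retained-intron and 2 non-stop decay transcripts. The material was 2 libraries of long-read RNA sequencing, in which single reads can span a whole messenger RNA, made from total RNA of female mice aged 36 days. The mice were of the hybrid strain B6CASTF1/J and carried no treatment or engineered allele in the labels. The labels number the libraries as biological replicates 1 and 2 of 1 group with different female numbers under 1 donor entry, so the study holds no comparison of conditions.

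In NMD, a ribosome that stops well before the last exon-exon junction leaves the protein complex that marks the junction in place, and the RNA is degraded. Annotators therefore assign the type when the stop codon lies at least 50 nt before the last junction. Retained-intron transcripts hold bases that coding transcripts of the gene splice out. Such RNA is often kept in the nucleus, and the type also covers short annotated fragments that start or end inside an intron. Non-stop decay removes RNA whose reading frame runs into the tail without a stop codon.

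The tables held 853589 reads in replicate 1 and 1748822 in replicate 2, of which 779862 and 1558932 fell in protein-coding genes. One read was worth 1.28 and 0.641 CPM (counts scaled to the reads in protein-coding genes), and a count of 0 allowed up to 3.85 and 1.92 CPM (3 reads). The 6 fast skeletal muscle markers took 32.6% and 19.8% of these reads, while each of the lists for endothelium, fibroblasts, fat, blood, Schwann cells, macrophages and satellite cells took under 1%. Of the slow muscle markers, 2 of 4 had no read in replicate 1, where the list held 0.00103% of the reads, against 0.723% in replicate 2. In bulk tissue, fewer cells of a type and less RNA per cell cannot be told apart. Shares below are percent of all reads of the gene, in replicate 1 and then replicate 2, with exact Clopper-Pearson 95% intervals that cover counting error only.

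To show what sets these transcripts apart, the leading stretches are printed 5′ to 3′ from the GENCODE M21 transcript sequences (mm10), with up to 15 bases on each side. In 3 of them a coding transcript splices the stretch out as an intron, and the capitals mark its first and last 2 bases, GT and AG, the usual ends of an intron. These were the intron at chr9:121710472-121710638 (+) of Ss18l2-207, and those at chr4:155469347-155469443 (+) and chr4:155469211-155469302 (+) of Tmem52-202 and Tmem52-203.
Ss18l2-207: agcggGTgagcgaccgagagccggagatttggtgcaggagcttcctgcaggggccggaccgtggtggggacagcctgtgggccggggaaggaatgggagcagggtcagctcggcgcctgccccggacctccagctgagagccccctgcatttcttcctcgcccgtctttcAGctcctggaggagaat
Tmem52-202: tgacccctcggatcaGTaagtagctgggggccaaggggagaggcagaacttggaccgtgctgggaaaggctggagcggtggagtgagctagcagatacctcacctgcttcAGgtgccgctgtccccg
Tmem52-203: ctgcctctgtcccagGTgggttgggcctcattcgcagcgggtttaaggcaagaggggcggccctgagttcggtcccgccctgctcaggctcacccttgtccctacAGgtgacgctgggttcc
For E2f6-204, the start of the extra exon at chr12:16813847-16813912 (+) is shown up to the stop codon that ends its reading frame, in capitals.
E2f6-204: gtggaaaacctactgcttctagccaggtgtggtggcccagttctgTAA
For the transcripts with the most reads, Cox4i1-204 and Fxyd1-213, the 5′ end that no coding exon holds is shown, at chr8:120672590-120672724 (+) and chr7:31052178-31052193 (-). There the capitals mark the AG before the exon shared with the coding transcripts, and the intron's 5′ end is not part of the transcript.
Cox4i1-204: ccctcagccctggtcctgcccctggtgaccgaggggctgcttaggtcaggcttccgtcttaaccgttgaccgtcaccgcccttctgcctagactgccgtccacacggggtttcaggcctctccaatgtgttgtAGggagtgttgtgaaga
Fxyd1-213: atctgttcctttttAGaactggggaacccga

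Annotated NMD transcripts took few of the reads in this muscle, and annotated retained-intron transcripts took more but mostly through a few genes. NMD transcripts held 711 reads, or 0.0912% of the reads in protein-coding genes, in replicate 1 (interval 0.0846 to 0.0981) and 1615 reads, or 0.104%, in replicate 2 (0.0986 to 0.109), a mean of 0.0974 ± 0.00879% (SD, n = 2). Retained-intron transcripts held 5441 reads, or 0.698% (0.679 to 0.716), and 21082 reads, or 1.35% (1.33 to 1.37), a mean of 1.03 ± 0.463% (SD, n = 2). Both shares were higher in replicate 2, with intervals that did not overlap between the libraries. Transcripts annotated as protein_coding held 65.3% and 65.7%, and most other reads fell in models outside the annotation, which were not typed here. The 3 leading retained-intron transcripts, Cox4i1-204, Fxyd1-213 and Rpl5-204, held 47.8% and 63.8% of all retained-intron reads, and the leading 20 NMD transcripts held 49.4% and 47.9% of all NMD reads.

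Most of these transcripts were seen once. A single read in both libraries together was all that 982 of the 1936 (50.7%) had, and 218 had at least 10. NMD transcripts numbered 248 in replicate 1 and 365 in replicate 2, with 171 in both, and retained-intron transcripts 757 and 1223, with 488 in both. In genes that reached 20 reads in both libraries, 204 of 1433 annotated NMD transcripts (14.2%) and 804 of 4971 annotated retained-intron transcripts (16.2%) had a read. For transcripts annotated as protein_coding in the same genes it was 4868 of 10195 (47.7%), and for those annotated as processed_transcript 287 of 2801 (10.2%).

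The order of introns removed from a transcript, its intron chain, was compared with the chains of the coding transcripts of the same gene. Retained-intron transcripts seldom had a chain of their own, whereas NMD transcripts nearly always did. Of the 1492 retained-intron transcripts, 776 spliced only the last 1 or more introns of a coding transcript (a 3′ part of its chain), 279 only the first ones (a 5′ part), 18 an inner run and 4 the whole chain, 270 spliced no intron, and 145 had a chain found in no coding transcript. The 3′ parts held 79.4% of the retained-intron reads in replicate 1 and 86.7% in replicate 2, the transcripts without introns 9.80% and 8.04%, and those with a chain of their own 6.21% and 2.48%. Runs of a coding chain of any kind (3′, 5′, inner or whole) held 84.0% and 89.5% of the retained-intron reads. Without the 3 leading transcripts, such runs held 69.3% and 71.0% of the rest. Of the 442 NMD transcripts, 431 (97.5%) had a chain of their own, with 84.5% and 80.9% of the NMD reads.

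**Figure D1:**
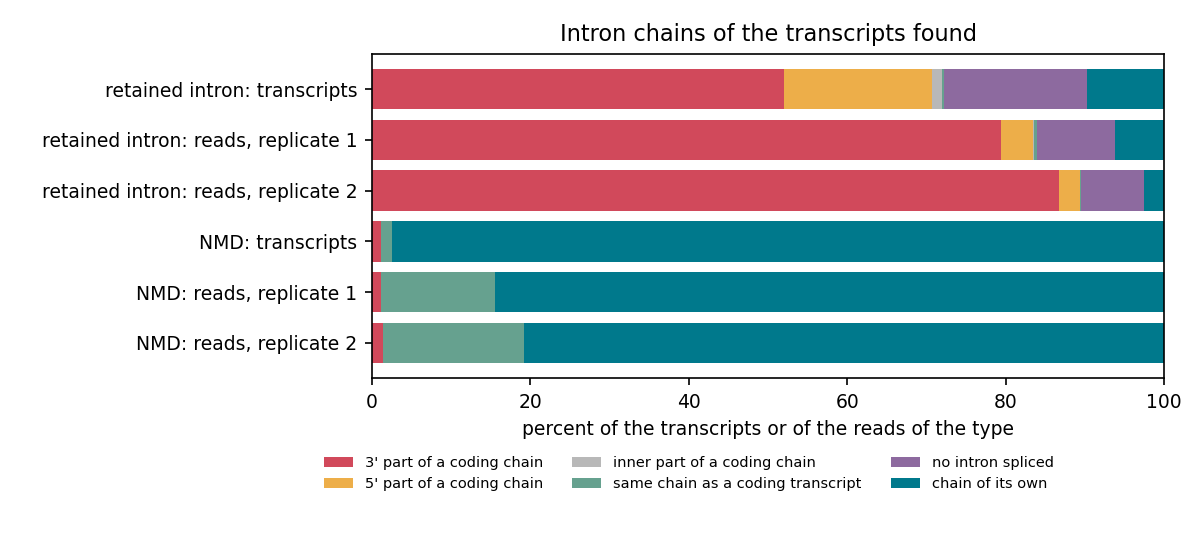
Make-up of the found retained-intron (upper 3 bars) and NMD (lower 3 bars) transcripts by intron chain, as percent (x axis) of the transcripts and of the reads of each library. The 3′ parts of coding chains fill 79.4% and 86.7% of the retained-intron reads, and chains of their own fill 84.5% and 80.9% of the NMD reads.

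Which annotated retained-intron transcripts were found also differed by chain. In genes that reached 20 reads in both libraries, 493 of 1025 annotated 3′ parts (48.1%) had a read, against 129 of 1223 5′ parts (10.5%), 11 of 1366 inner parts (0.805%) and 71 of 928 transcripts with a chain of their own (7.65%). The share for 3′ parts was close to the 47.7% of protein_coding transcripts in these genes. Of the 776 3′ parts found, 645 (83.1%) began in bases outside every coding exon of the gene, 585 kept no whole intron and 373 spliced a single intron. A read assigned to such a transcript has the same junctions as the 3′ end of a coding messenger RNA, and the ends of single reads are not in the tables used here. How many of these reads were incomplete copies of coding messenger RNA was not tested. Beside them, models that TALON, the program that assigned the reads, calls incomplete matches of the 3′ end took 8.28% and 10.7% of all reads in protein-coding genes, against 0.389% and 0.349% for incomplete matches of the 5′ end.

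**Figure D2:**
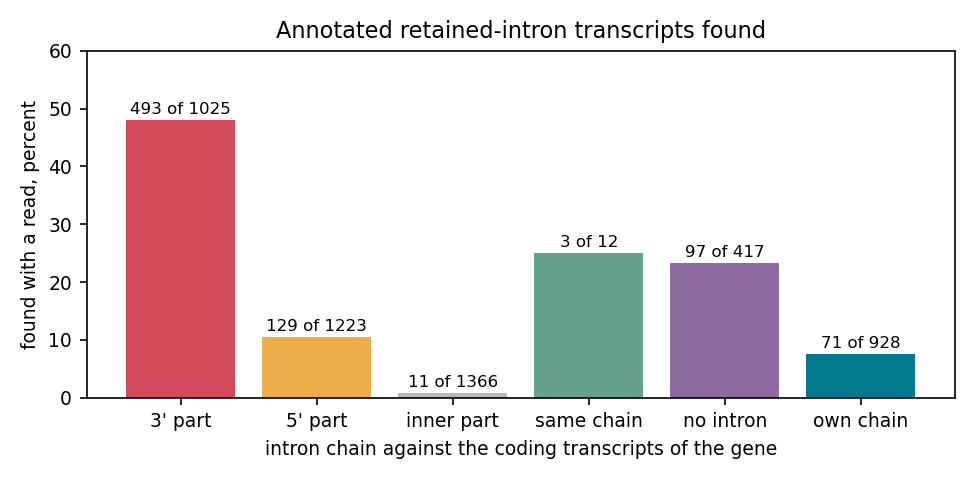
Percent (y axis) of annotated retained-intron transcripts with at least 1 read, by intron chain (x axis), in genes that reached 20 reads in both libraries. The bar of the 3′ parts stands at 48.1%, and that of the inner parts at 0.805%.

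The 3′ parts with the most reads came from genes of respiration, ion transport and the ribosome. Cox4i1 encodes a subunit of cytochrome c oxidase, the last enzyme of the respiratory chain. Cox4i1-204 had 1334 of 2185 reads of the gene in replicate 1, or 61.1% (59.0 to 63.1), and 7096 of 10248 in replicate 2, or 69.2% (68.3 to 70.1). It starts in the intron before the middle exon of Cox4i1-201 and splices the last 2 of its 4 introns. Coding transcripts with all 4 introns spliced had 778 and 2909 reads, models with the last 3 spliced only 27 and 88, and the retained-intron transcript Cox4i1-203 with the last one spliced 18 and 27. Reads of Cox4i1 thus fell mainly at 2 lengths of chain and rarely between them.

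Fxyd1 encodes phospholemman, a small membrane protein that regulates the sodium pump of muscle. Fxyd1-213 had 891 of 1414 reads, or 63.0% (60.4 to 65.5), and 4886 of 6804, or 71.8% (70.7 to 72.9). It splices 2 introns, as did further incomplete models with 129 and 664 reads, while coding transcripts with 7 introns had 295 and 860. Among known transcripts and incomplete matches of the 3′ end, those with 3, 4 or 5 introns had at most 7 reads in a library. Models with other incomplete or unannotated chains, up to 130 reads a kind, are not in that count. Fh1, fumarate hydratase of the citric acid cycle, showed the same spacing at a lower share: Fh1-203 with 2 introns had 54 of 247 reads, or 21.9%, and 275 of 864, or 31.8%, beside 182 and 569 reads of coding transcripts with 9 introns. For Rex1bd, Rex1bd-207 with 2 introns had 109 of 187 reads, or 58.3%, and 316 of 482, or 65.6%, beside 65 and 131 reads of coding transcripts with 4.

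Rpl5 encodes a protein of the large ribosomal subunit that carries the 5S ribosomal RNA. Rpl5-204 had 375 of 414 reads, or 90.6% (87.3 to 93.2), and 1462 of 1562, or 93.6% (92.3 to 94.8), and coding transcripts with all 7 introns had 31 and 57. Its private bases hold the gene of the small nucleolar RNA Snord21. This share depends on the assignment of reads between gene copies: the pseudogene Gm15500, which shares 99.9% of its 25-nt words with Rpl5, held 270 and 1135 reads. With those reads in the total, a choice made after seeing the data, Rpl5-204 had 54.8% and 54.2%.

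**Figure D3:**
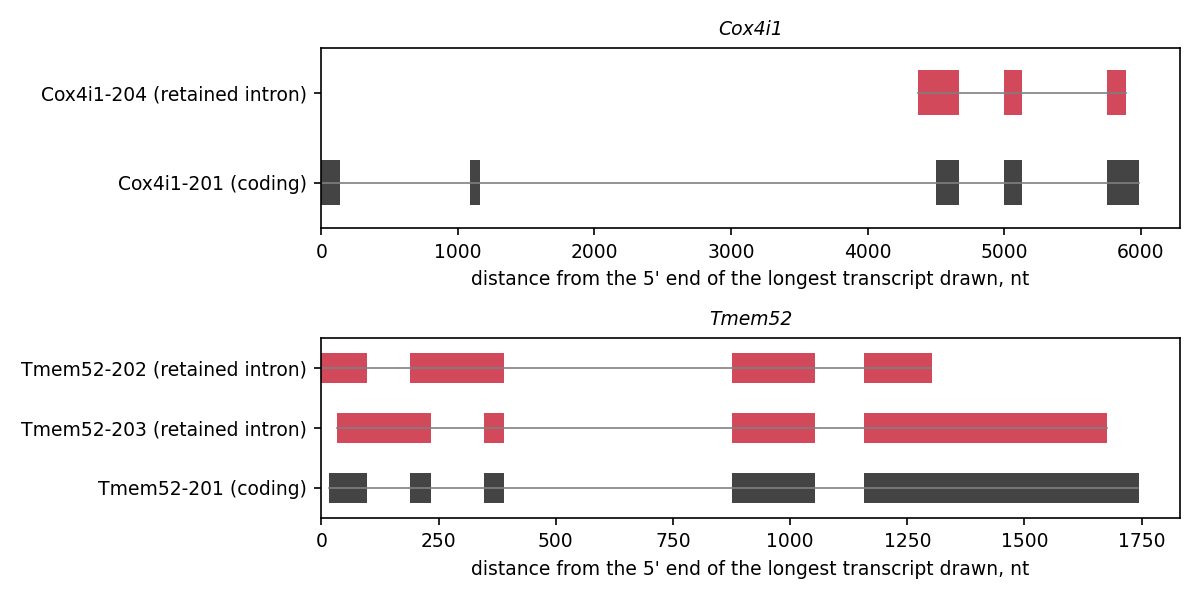
Exons (boxes) and introns (lines) of Cox4i1 and Tmem52 transcripts against distance in nt from the 5′ end of the longest transcript drawn, in the direction of transcription. Cox4i1-204 starts inside an intron of Cox4i1-201 and shares its last 2 junctions, and each Tmem52 retained-intron transcript fuses 2 exons of Tmem52-201.

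Among sarcomere genes the 3′ parts had small shares of all reads of the gene. Myoz1-203, from the gene of the Z-disc protein myozenin 1, had 155 of 3047 reads, or 5.09%, and 415 of 5635, or 7.36%. Tnni2-203, of fast troponin I, had 0.999% and 1.17%, and Mylpf-203, of the fast regulatory light chain, 0.198% and 0.187%. Actn3-202, of alpha-actinin 3, had 0.506% and 1.04%. Each of these genes had at least 3047 reads in a library, nearly all of them in other models. The total decides some of these values: of known transcripts alone, Tnni2-203 made up a mean of 50.7%, and Tnnt3-221, of fast troponin T, 100%, against means of 1.09% and 0.297% of all models.

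A whole intron of a coding transcript was kept in 475 retained-intron transcripts, with 19.4% and 13.1% of the retained-intron reads, and in 111 of them, with 5.81% and 2.25%, it lay inside an inner exon, so that splicing on both sides was read. Kept introns were short: the median was 245 nt over 760 kept introns, against 668 nt over 4633 other introns of the same genes. For transcripts with a chain of their own the medians were 228 nt for kept and 538 nt for other introns.

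Of the retained-intron transcripts with a chain of their own, the one with the highest mean CPM came from Tmem52, a gene of a transmembrane protein. Tmem52-202 keeps the 97 nt printed above, which Tmem52-201 removes as part of a longer intron, and had 94 of 321 reads, or 29.3% (24.4 to 34.6), and 211 of 823, or 25.6% (22.7 to 28.8). Tmem52-203 keeps the 92-nt intron upstream and had 62 reads, or 19.3% (15.1 to 24.1), and 154, or 18.7% (16.1 to 21.5). The coding transcript Tmem52-201, which holds neither stretch, had 119 reads, or 37.1%, and 299, or 36.3%. The libraries overlapped in all 3 shares, and retained-intron transcripts together made up 48.6% and 44.3% of the gene. Tmem52-202 alone took 127.9 ± 10.5 CPM (SD, n = 2), and Tmem52-203 89.1 ± 13.6 CPM.

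Rsrp1, which encodes an arginine- and serine-rich protein, had its largest share of reads in Rsrp1-204, which holds 1302 bases outside all coding exons of the gene. It had 120 of 155 reads, or 77.4% (70 to 83.7), and 98 of 196, or 50% (42.8 to 57.2), beside 7 and 34 reads of Rsrp1-201. The other leading transcripts with a chain of their own were Ppdpf-206 with 23.1% and 13.9%, Fdx1l-203 with 13.8% and 15.4%, and Mrps24-203, of a mitochondrial ribosomal protein gene, with 4.88% and 5.14%. Each of these 3 keeps 1 intron, with at most 82 bases outside coding exons, and rests on 4 to 18 reads a library.

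Transcripts without any intron cannot be told from unspliced or genomic sequence by their junctions. Ss18l2-207, a single exon of 2354 bases, keeps 3 whole introns of coding transcripts, among them the one printed above. Only 167 of its bases lie outside all coding exons of the gene. It had 99 of 200 reads, or 49.5% (42.4 to 56.6), and 395 of 744, or 53.1% (49.4 to 56.7), beside 80 and 270 reads of Ss18l2-201. Usp19-211, from the gene of a deubiquitinating enzyme, had 29 of 75 reads, or 38.7%, and 78 of 133, or 58.6%. Egfl7-213, from a gene of endothelial cells, had 13 of 30 reads, or 43.3%, and 37 of 77, or 48.1%. Trdn-204, of triadin in the calcium release unit, had 21 and 59 reads, or 1.69% and 1.27%. It made up a mean of 1.48% of all reads of the gene, 75.5% of known transcripts alone, and 17.8% when incomplete models and those TALON calls Genomic, which do not follow the annotated splicing, were left out. Gapdh-213 had 18 of 57 reads, or 31.6%, and 41 of 122, or 33.6%, but 22 pseudogenes that share most of their words with Gapdh held 4580 and 4804 reads. With those counted, the share of Gapdh-213 was 0.388% and 0.832%.

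NMD transcripts were grouped by what changes the chain, each under the first change that applied, so later groups leave out transcripts that also fit an earlier one. First, 96 held an inner exon outside all coding exons (25.7% and 21.5% of the NMD reads). Next, 19 kept a whole intron in an inner exon (6.47% and 3.03%). Of those left, 187 used a splice site that no coding transcript of the gene uses (32.5% and 36.2%). A further 110 joined known splice sites in another combination (16.9% and 17.0%). In the remaining 30 every junction was also found in a coding transcript (18.4% and 22.3%). The stop codon lay at least 50 nt before the last junction in 439 of 441 with an annotated stop, as the type is defined, at a median of 264 nt, and 117 had a single junction after it. Their reading frames had a median of 87 codons, and 247 were under 100 codons, against a median of 382 codons in protein_coding transcripts with a read. Relative to the longest coding frame of the gene the median was 35.8%. In 42 NMD transcripts the annotation lacks the start of the frame, so their codon counts are incomplete, and they are part of these medians. The stop codon was shared with a coding transcript in 38, which held 21.2% and 27.6% of the NMD reads, and their frames had a median of 73.0% of the longest.

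Smpx, the X-linked gene of a small muscle protein, led this last group and all NMD transcripts. Smpx-201 had 96 of 157 reads, or 61.1% (53.1 to 68.8), and 274 of 405, or 67.7% (62.9 to 72.2), and 149.4 ± 37.2 CPM (SD, n = 2). Its frame of 85 codons equals the longest coding frame of the gene and ends at the same stop, which lies 52 nt before the last junction. Smpx-208, annotated as protein_coding, has the same introns and the same stop, so the junctions do not separate them, and the remaining coding reads were 45 and 58 of Smpx-203, which lacks 1 exon after the stop. Chpt1-207, from a gene of phosphatidylcholine synthesis, likewise had 398 of 406 codons and a stop shared with a coding transcript, at 72 nt before the last junction. It had 10 of 79 reads, or 12.7% (6.24 to 22.0), and 55 of 249, or 22.1% (17.1 to 27.8).

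Exons outside all coding exons were read in NMD transcripts of E2f6 and Yaf2, both genes of transcriptional repression. E2f6-204 includes the 66-base exon printed above, and its frame has 46 codons, against 272 in the longest coding frame, with 6 junctions after the stop. It had 65 of 104 reads, or 62.5% (52.5 to 71.8), and 83 of 133, or 62.4% (53.6 to 70.7), beside 27 and 29 reads of the coding E2f6-201. Yaf2-202 has 68 codons, against 179 in the longest coding frame, and had 11 of 27 reads, or 40.7%, and 26 of 55, or 47.3%. Actg1-206, of cytoplasmic gamma-actin, has 132 codons, against 375, and had 27 of 92 reads, or 29.3%, and 22 of 116, or 19.0%. In all 3 genes the intervals of the libraries overlapped.

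Among the other genes with high NMD shares, Adhfe1-201, of a mitochondrial oxidoreductase, has 38 codons, against 465 in the longest coding frame, and had 16 of 65 reads, or 24.6%, and 24 of 127, or 18.9%. Slc35b1-202, of a transporter in the endoplasmic reticulum, uses no junction that coding transcripts lack and had 28.6% and 25.5%. In Tmem234, 5 NMD transcripts together had 8 of 22 reads, or 36.4%, and 29 of 63, or 46.0%, and Tmem234-210 led them with 7 and 18. The NMD transcripts of Thap12 made up 22.4% and 9.73%, those of Dcaf11 15.6% and 13.1%, and those of Tmed1, a cargo receptor of the early secretory pathway, 12.2% and 10.8%. Cyth2-203, of an exchange factor for ARF proteins, had 15 of 19 and 18 of 27 reads, too few in replicate 1 for the minimum of 20 reads of the gene.

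In the respiratory chain list 8 of 75 genes had an NMD read and in the proteasome and ubiquitin list 2 of 38, against 5.77% of all genes, and none of these reached a mean share of 10%. Counts in gene lists are out of all genes with enough reads, also those with no annotated transcript of the 3 types. One existed in 46 of these 75 genes and in 27 of these 38. Ndufb8-205 and Ndufs6-202, of complex I subunits, had 1.73% and 2.08%, and 3.47% and 7.84%. Smdt1-204, from the gene of a subunit of the mitochondrial calcium uniporter, had 3.55% and 6.11%. Psma3-201, of a proteasome subunit, had 5.35% and 3.46%. The leading coding transcripts of these complex I genes, Ndufb8-201 and Ndufs6-201, had 375 and 1615 reads, and 125 and 383.

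**Figure D4:**
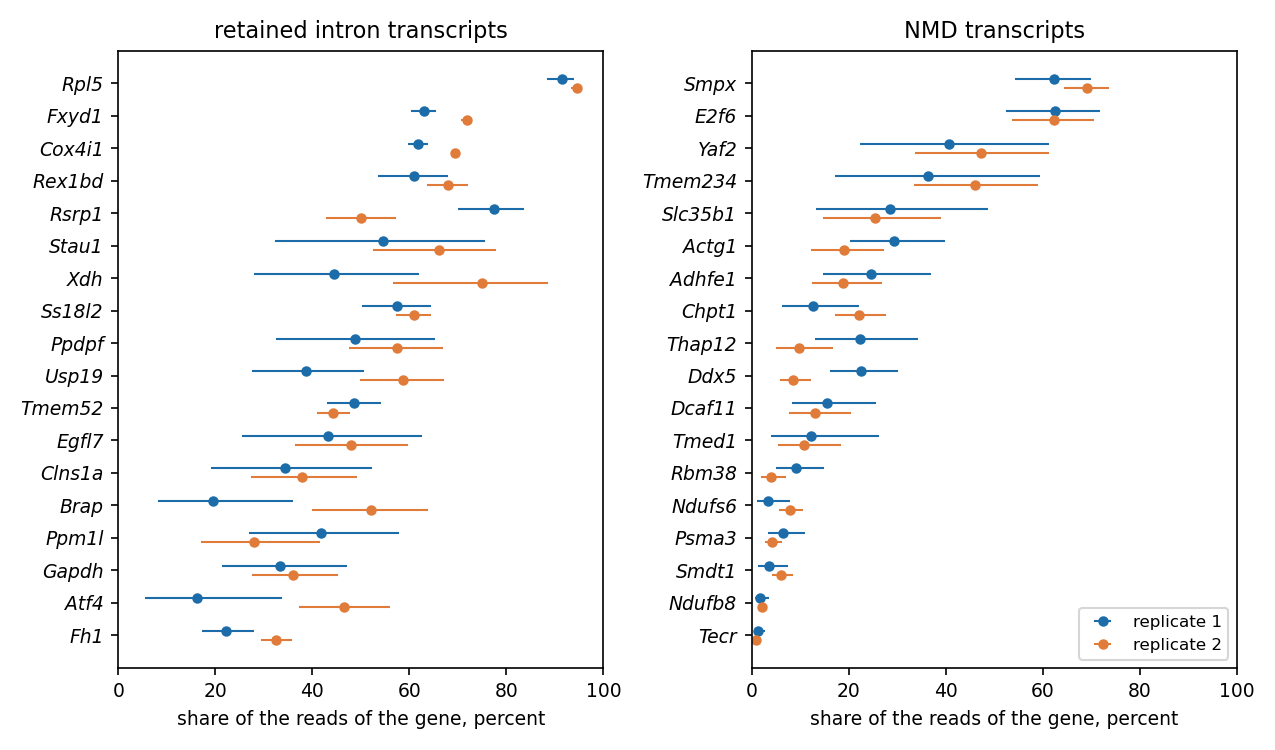
Share of the reads of a gene (x axis, percent) in its retained-intron (left) and NMD (right) transcripts, for the 18 genes with the highest mean share among those with 20 reads or more, 5 of them in such transcripts, in both libraries. Points are libraries and bars are exact 95% intervals, and Smpx and E2f6 lead the NMD panel with means of 65.8% and 62.5%.

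Over the 3087 protein-coding genes that reached 20 reads in both libraries, 178 (5.77%) had an NMD read and 671 (21.7%) a retained-intron read. A mean share of at least 10% was reached by 17 genes for NMD transcripts and by 53 for retained-intron transcripts, and a mean of at least 50% by 2 and 9. Smpx and E2f6 were the 2 for NMD, and Rpl5, Fxyd1, Cox4i1, Rex1bd, Rsrp1, Stau1, Xdh, Ss18l2 and Ppdpf the 9 for retained introns. Stau1-209, of an RNA-binding protein, had 12 of 22 and 39 of 59 reads, and Xdh-213, of xanthine dehydrogenase, 16 of 36 and 24 of 32, so these shares rest on few reads. At least 10% in each library separately, with at least 5 reads each, was seen in 10 genes for NMD and 32 for retained introns.

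Counts for genes of RNA-binding proteins were small and stand beside 0.551% of all 3087 genes at a mean NMD share of 10% or more, and 1.72% for retained introns. SR proteins are known for exons with early stop codons that limit their own level. Here 2 of 5 SR protein genes with enough reads had an NMD read, and 1 reached 10%: Srsf6 with 4 of 24 reads, or 16.7%, and 4 of 40, or 10%. Among 14 hnRNP genes 3 had an NMD read, and Hnrnpa1 reached 10% with 4 of 43, or 9.30%, and 12 of 68, or 17.6%. The reads of Srsf6 and Hnrnpa1 were those of Srsf6-201 and Hnrnpa1-203, and each shares its stop codon with a coding transcript of the gene. Their frames have 135 codons, against 339 in the longest coding frame, and 320, against 373. Of 19 other splicing factors 4 had an NMD read, with Ddx5 alone at 10% or more, and 9 a retained-intron read, with U2af1 (3 of 30 and 14 of 44 reads) and Luc7l2 (2 of 23 and 9 of 57) at 10% or more. Rbm38-206, of an RNA-binding protein, had 7.19% and 3.94%, and all NMD transcripts of Rbm38 together 9.15% and 3.94%. The mean NMD share was 3.91% over the 5 SR genes, 1.64% over the hnRNP genes and 0.243% over all 3087 genes. These means rest on 1 or a few genes each, and the median NMD share of every list was 0.

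Ribosomal protein genes had a retained-intron read in 42 of 75, against 21.7% of all genes, but only Rpl5 and Rpl21 reached 10%. An annotated transcript of the 3 types existed in 59 of the 75. Rpl21-204 had 7 of 25 and 12 of 54 reads, and 7 pseudogenes that resemble Rpl21 held 259 and 671 reads, so that its share was 28.0% and 22.2%, or 2.46% and 1.66% with those counted. Rpl26-204 had 5.67% and 9.19%, and Rps26-202 4.58% and 5.55%. In the respiratory chain 28 of 75 genes had a retained-intron read, with Cox4i1 alone at 10% or more. Ndufa6-206 had 3.77% and 5.21%, Ndufa7-204 4.57% and 4.55%, Ndufb10-204 1.97% and 3.06%, and Uqcrh-205 2.49% and 1.98%. Of 38 proteasome and ubiquitin genes 11 had such a read, and Psmb6-202, from the gene of a catalytic subunit, had 66 of 311 reads, or 21.2%, and 203 of 771, or 26.3%. Of 36 translation factor genes 9 did, with Pabpc1 at 19.0% and 16.0% (4 reads each) and Eif2s2-202 at 3.09% and 3.46%.

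No gene of the fast sarcomere and calcium release lists reached a mean retained-intron share of 10%, and Gapdh alone did in the glycolysis list. Of 25 fast sarcomere genes 7 had a retained-intron read, against 21.7% of all genes, and none had an NMD read. Their mean retained-intron share was 0.352%, against 0.895% over all genes. An annotated transcript of the 3 types existed in 14 of these 25 genes, 10 of 17 calcium release genes and 14 of 19 glycolysis genes. Genes without one could have no such read. Of 17 calcium release and excitation genes 2 had a retained-intron read and 1 an NMD read, and Casq1-202, of calsequestrin, had 0.146% and 0.152%. In glycolysis and glycogen use 5 of 19 had one, with Tpi1-201 at 0.490% and 0.752%, Gpi1-203 at 0.847% and 0.559%, and Pygm-203, of glycogen phosphorylase, at 0.522% and 1.57%. Of 18 chaperone and stress genes 3 had one, of 19 tRNA synthetase genes 3, and of 7 polyamine genes 2. Among 3 kinases of SR proteins none had either type, among 3 decay factor genes 1 had a retained-intron read, and the single gene of the detained-intron list with enough reads had none. The NMD transcripts Tnnc1-203 and Myoz2-203, of slow-fibre genes, were read in replicate 2 alone and had 22 of 2251 reads, or 0.977%, and 13 of 482, or 2.70%, with 1 and 0 reads of the genes in replicate 1.

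Of 26 non-stop decay transcripts annotated in protein-coding genes, 2 had a read (7.69%), against 6.15% of NMD and 6.96% of retained-intron transcripts. Only 1 of the 26 lay in a gene that reached 20 reads in both libraries, and it had no read. Tatdn1-209 had 3 of 17 reads, or 17.6% (3.8 to 43.4), and 11 of 40, or 27.5% (14.6 to 43.9). Rbm33-203 had 0 of 12 and 1 of 21 reads and splices a 5′ part of a coding chain.

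Small RNA genes lay within the private bases of 11 retained-intron transcripts, which held 6.98% and 7.02% of the retained-intron reads, nearly all through Rpl5-204. The intron kept by the NMD transcript Ddx5-208 likewise holds the miRNA gene Gm25994. Counting such small RNA genes too, exons of 39 NMD and 109 retained-intron transcripts overlapped another gene on the same strand. Those of 103 and 205 overlapped a gene on the opposite strand, and reads of overlapping genes may be hard to assign.

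The libraries were compared by Fisher's exact test, two-sided, of each transcript's reads against the other reads of its gene, with Benjamini-Hochberg adjustment over 3710 known transcripts of protein-coding genes. The test compares these 2 libraries, not conditions. Transcripts were called when the adjusted p was under 0.05 and the shares differed by at least 10 percentage points. Of all 3710, 9.6% were called, 9.14% as higher in replicate 1 and 0.458% as lower, and of the 3524 of other types 9.88%, 9.51% as higher and 0.369% as lower. Of the 33 NMD transcripts that could be tested 1 was called (3.03%), higher in replicate 1. Of 153 retained-intron transcripts 7 were called (4.58%), 3 higher (1.96%) and 4 lower (2.61%) in replicate 1. The median difference, replicate 1 minus replicate 2, was 0.094 points for NMD, -0.753 for retained introns and 3.34 over all, and 105 of the 153 retained-intron shares were lower in replicate 1. Without the minimum difference, 18 retained-intron transcripts had an adjusted p under 0.05 in the exact test, among them Cox4i1-204 (adjusted p = 1.91e-11, difference -8.19 points) and Fxyd1-213 (6.35e-09, -8.80 points).

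**Figure D5:**
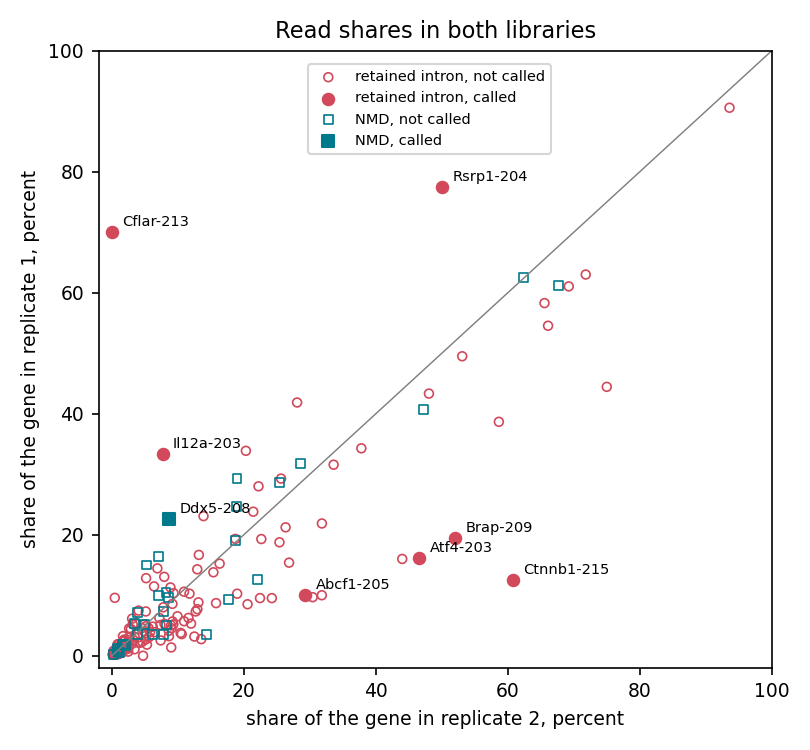
Share of the gene in replicate 1 (y axis) against replicate 2 (x axis), in percent, for the 186 tested transcripts. Filled symbols are the 8 called ones and the line marks equal shares, with Rsrp1-204 above it at 77.4% and 50% and Brap-209 below it at 19.4% and 52.1%.

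Higher in replicate 1 were Rsrp1-204 by 27.4 points (exact test, adjusted p = 6.06e-06), Cflar-213, Il12a-203 and Ddx5-208. Cflar encodes an inhibitor of caspase 8, and Cflar-213, a single exon outside all coding exons, had 14 of 20 reads, or 70%, and 0 of 60, which allows up to 5% at 3 reads (exact test, adjusted p = 1.91e-09). The remaining Cflar reads of replicate 2 were mostly Genomic models, at 51 of 60 against 1 of 20 in replicate 1. Il12a-203 had 7 of 21 reads, or 33.3%, and 9 of 117, or 7.69% (exact test, adjusted p = 0.0327), again with 13 and 107 reads in Genomic models. Ddx5 encodes an RNA helicase, and Ddx5-208 had 33 of 146 reads, or 22.6%, and 28 of 325, or 8.62% (exact test, adjusted p = 0.0019). Genomic models took 4.11% and 49.5% of Ddx5, and without incomplete and Genomic models the shares were 33.3% and 18.3%, no longer called (exact test, adjusted p = 0.29).

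Lower in replicate 1 were Ctnnb1-215, Brap-209, Atf4-203 and Abcf1-205, of which the first 3 splice no intron. Ctnnb1-215, of beta-catenin, had 3 of 24 reads, or 12.5%, and 34 of 56, or 60.7% (exact test, adjusted p = 0.0016). Brap-209 had 7 of 36, or 19.4%, and 38 of 73, or 52.1% (exact test, adjusted p = 0.0198), and Abcf1-205, of a protein that acts in translation initiation, 8 of 80, or 10%, and 34 of 116, or 29.3% (exact test, adjusted p = 0.0162). Atf4-203, from the gene of a stress-response transcription factor, had 5 of 31, or 16.1%, and 54 of 116, or 46.6% (exact test, adjusted p = 0.022), and was not called with known transcripts as the total, at 17.2% and 47.8% (exact test, adjusted p = 0.137). Rsrp1-204, Brap-209 and Abcf1-205 were also called under both other totals (known transcripts, and models without incomplete and Genomic ones), and Cflar-213, Il12a-203 and Ctnnb1-215 were too shallow to be tested there. Of the gene lists, the other splicing factors had 2 NMD and 3 retained-intron transcripts tested, with 1 called, Ddx5-208. The chaperone and stress genes had 2 retained-intron transcripts tested, with 1 called, Atf4-203. These numbers are too small to set against the 9.6% called among all 3710. The other lists held no call, but no such transcript could be tested for SR proteins, their kinases, decay factors, detained-intron genes or tRNA synthetases.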

How the data were processed

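Total RNA of gastrocnemius from female mice was sequenced as long reads in 2 libraries made from 2 ug of RNA each with spike-in mixes, per the labels. For each library the authors deposited a table with the count of reads of every transcript model, and the models themselves. Per the file headers these come from alignments to mm10 with GENCODE M21, and transcripts carry TALON numbers. Which aligner and filters were used is not given in the sources used here. These counts were not normalized, and no replicates were pooled. Coordinates are 1-based, as deposited. All 141862 annotated transcripts had the same type and gene in both deposited annotations and in M21.

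Transcripts were taken by type from the deposited annotation. The total of a gene is the reads of all its models, incomplete and unannotated ones included. Intron chains, kept introns and stop codons were computed from the M21 exons against the protein_coding transcripts of the gene. Fisher's exact tests needed at least 10 reads of the transcript summed and 20 reads of the gene in each library. Both libraries form 1 group, so no model of spread could be fitted, and p-values measure only counting differences between these libraries. The test was tested on simulated data. Other totals, minimums and left-out libraries were tried as alternatives. Pseudogene copies were annotated pseudogenes with a read that share at least 50% of their 25-nt words with the gene.

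Transcripts are named by a rule: for NMD and retained introns, the 12 with the highest mean CPM with reads in both libraries, those of the 12 genes with the highest mean share (at least 20 gene reads and 5 such reads in each library), up to 8 called ones per direction, every non-stop decay transcript, and up to 6 per gene list. Other named genes, among them Srsf6, Hnrnpa1, U2af1, Luc7l2, Pabpc1, Fdx1l, Mrps24, Tnnc1 and Myoz2, were chosen after their values were seen, as were the 2 printed 5′ ends. Printed introns and exons follow the rank by CPM, up to 300 bases, and an intron of Ss18l2-203 that overlaps one already shown was passed over. The transcripts and gene lists were chosen with earlier results of these data known. The result for 1 retained-intron transcript is not reported here. The software was Python 3.11.15, scipy 1.17.1, pandas 2.3.3, numpy 2.4.6 and matplotlib 3.10.9.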

Additional observations from a re-analysis of the deposited data

How the results depend on the processing

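The mean NMD share of reads (0.0974%) was 0.146% of known transcripts only, 0.122% without incomplete and Genomic models, 0.0804% over transcripts with a chain of their own, and 0.0482% without the 20 genes with most such reads. The retained-intron share (1.03%) was 1.53% of known transcripts, 0.0384% over chains of their own and 0.272% without such 20 genes. Single libraries gave 0.0912 to 0.104% and 0.698 to 1.35%. Genes with at least 10% of reads in NMD transcripts (17) numbered 41 with at least 10 reads of the gene, 8 with at least 50, and 21 to 37 from single libraries. For retained introns (53) they numbered 94, 21, and 57 to 110, and 5 with chains of their own. With the reads of pseudogene copies added, chosen after seeing the data, they were 17 and 51. Of the calls between libraries, the 1 for NMD became 0 under either other total, where Ddx5-208 was tested and missed the threshold. The 7 for retained introns became 3 without a minimum on reads, 3 with at least 50 reads of the gene, 18 without a minimum difference, 5 of known transcripts and 6 without incomplete and Genomic models. Under both of these other totals, 3 of the calls were among the 7. NMD transcripts found (442) were 248 to 365 in single libraries, and retained-intron transcripts (1492) 757 to 1223. Replicate 2 thinned to the depth of replicate 1 is expected to hold 253.9 and 836.5, against the 248 and 757 of replicate 1. Of 78 named shares, 35 moved by more than the spread between libraries with known transcripts as the total and 25 without incomplete and Genomic models, and 4 of 14 moved with pseudogene copies added. No paired analysis was possible because both libraries form 1 group. Depth limits single genes: at 20 reads a share moves by 5 points with 1 read, and 50.7% of the transcripts rest on 1 read.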

Other observations

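The same types also occur in genes that are not protein-coding, outside the transcripts described above: 28 such transcripts in 26 genes held 80 and 188 reads in the libraries. The larger part belonged to Nctc1, a noncoding gene next to Igf2 and H19 that is transcribed in muscle, where the retained-intron transcript Nctc1-201 had 67 of 114 reads, or 58.8%, and 114 of 201, or 56.7%.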
